A study of Mus musculus with 29 samples.

Results

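DNA methylation is written, copied and removed by a small set of enzymes, and 9 of the genes that encode them were followed here across 19 RNA-seq libraries of mouse hematopoietic stem cells (HSCs), the cells that renew themselves and give rise to all blood lineages. The genes were chosen by name, with earlier results of these data known. They are Dnmt1, Dnmt3a, Dnmt3b, Uhrf1, Tet1, Tet2, Tet3, Tdg and Mbd4. They were 9 of the 55376 gene symbols in the count files, and 9 of 9 passed the filter on low counts, as did 33690 symbols in all. The libraries were made from young wild-type (YWT, n = 4), old wild-type (OWT, n = 4), young Gadd45b knockout (YKO, n = 4) and old Gadd45b knockout (OKO, n = 7) mice, and the labels write the genotypes as WT and Gadd45KO and the ages only as young and old. The methods name no Cre or tissue-restricted allele for the knockout, and the strain background of the wild-type mice is not given in the sources used here. HSCs were sorted from bone marrow as Lin- cKit+ Sca1+ CD34- Flk2- CD150+ cells where the study's methods give the gate, and RNA was amplified before library preparation with a kit for low input. Nothing in the labels says whether each library came from 1 mouse, so p-values measure the spread between these libraries.

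Methylation at CpG sites is copied after each round of DNA replication by the maintenance methyltransferase Dnmt1, which Uhrf1 recruits to hemimethylated DNA. Dnmt3a and Dnmt3b place methyl groups on unmethylated sites, and Dnmt3a and Tet2 are known for restraining the expansion of HSC clones in mice and humans. The Tet enzymes oxidize 5-methylcytosine, the glycosylase Tdg removes the oxidized forms and T paired with G, and Mbd4 is a second glycosylase for T opposite G at CpG sites. Gadd45 proteins have been described as partners of this removal pathway, and the study compared ages and genotypes to ask how loss of Gadd45b bears on HSC aging.

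The libraries held between 22197555 and 77970627 counted reads, with a median of 57562473. Values below are CPM, counts scaled to a common library size with TMM factors, and the smallest count of any of the 9 genes was 404, so counting error is small beside the spread between libraries. All 7 HSC markers examined, Kit and Procr among them, had counts in 19 of 19 libraries. Gadd45b itself was measured at 9.12, 17.5, 8.17 and 7.34 CPM in YWT, at 10.1, 10.4, 15.5 and 10.2 in OWT and at 12.7, 14.3, 5.98 and 5.14 in YKO, and in OKO it ran from 2.84 to 6.94 with a median of 4.40. The YKO libraries therefore overlapped YWT for the targeted gene (log2 fold change -0.14, standard error (SE) 0.36, edgeR adjusted p = 1.00), while the OKO libraries all lay below OWT (log2 fold change -1.37, SE 0.31, edgeR adjusted p = 0.267). The counts cover the whole gene and where the deleted part lies in it is not given in the sources used here, so this does not test the genotype, and YKO and OKO stand below for the libraries so labelled. All YWT and YKO libraries and OKO1 to OKO3 carry titles without a prefix, and OWT and OKO4 to OKO7 carry the prefix IB15, which the study's library summary lists as a second batch. Age and batch therefore cannot be told apart in OWT vs YWT. OKO1 and OKO3 stood apart from the other libraries in their low level of replication genes, and values without them are given where they change a call.

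The counts of Tdg bear on those of a near copy of the gene, so its sequence comes first. Tdg lies on chromosome 10 (chr10:82629828-82650799 of mm10, plus strand), 1.7 Mb from Gadd45b (chr10:80930073-80932204). The processed pseudogene Gm9855 is a single block of 1194 bases without introns on the same chromosome (chr10:42054113-42055306, minus strand), 38.9 Mb from Gadd45b, and it is not a member of the set. Over its 1194 bases it differed from the Tdg transcript by 9 substitutions and 0 gaps, an identity of 99.25%, and the aligned part covered 94.3% of the Tdg coding sequence. Of the 1145 windows of 50 bases in Gm9855, 876 (76.5%) were found unchanged in Tdg. Of the 9 exon pieces of Tdg in the alignment, 5 held no substitution, and the longest of these, 242 bases, is printed because a read within it cannot be placed on 1 of the genes by its sequence.
Tdg at chr10:82641316-82641557, plus strand, and Gm9855 at chr10:42054938-42055179, minus strand: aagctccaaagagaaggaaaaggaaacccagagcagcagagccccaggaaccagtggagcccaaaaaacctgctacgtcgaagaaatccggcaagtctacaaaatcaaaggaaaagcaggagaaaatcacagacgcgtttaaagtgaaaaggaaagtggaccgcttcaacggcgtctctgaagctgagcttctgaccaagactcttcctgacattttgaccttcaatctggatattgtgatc
The piece with the most substitutions, 4 in 140 bases, is shown as a pair with the differing bases in capitals, because reads over these positions carry the difference.
Tdg at chr10:82648578-82648717, plus strand: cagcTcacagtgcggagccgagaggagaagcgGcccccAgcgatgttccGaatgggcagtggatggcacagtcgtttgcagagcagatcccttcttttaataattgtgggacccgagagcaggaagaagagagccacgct
Gm9855 at chr10:42054116-42054255, minus strand: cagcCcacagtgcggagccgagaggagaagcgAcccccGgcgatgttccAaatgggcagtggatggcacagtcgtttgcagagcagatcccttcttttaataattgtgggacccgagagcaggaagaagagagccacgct

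Levels between genes can be compared only per length, so CPM was divided by the total exon length in kilobases. In YWT the order was Dnmt1 (43.9 ± 5.72 CPM per kb, SD, n = 4), Uhrf1 (34.1 ± 6.50), Dnmt3b (16.6 ± 1.66), Tdg (8.90 ± 2.53), Mbd4 (5.82 ± 0.998), Dnmt3a (4.90 ± 0.500), Tet3 (2.55 ± 0.0838), Tet1 (2.25 ± 0.362) and Tet2 (1.69 ± 0.103). The neighbours Dnmt1 and Uhrf1, Tdg and Mbd4, Mbd4 and Dnmt3a, and Tet3 and Tet1 had overlapping intervals of 1 SD, and the other neighbours did not. The maintenance pair thus headed the list and the 3 Tet genes closed it. The exon length counts every annotated isoform, so genes with long alternative exons, such as Dnmt3a and the Tet genes, are placed lower than a single isoform would place them. Over all 19 libraries the ratio of the highest to the lowest CPM was largest for Uhrf1 (8.02), Tdg (7.64) and Dnmt1 (4.90) and ran from 1.82 for Mbd4 to 3.07 for Tet1 in the other 6.

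**Figure D1:**
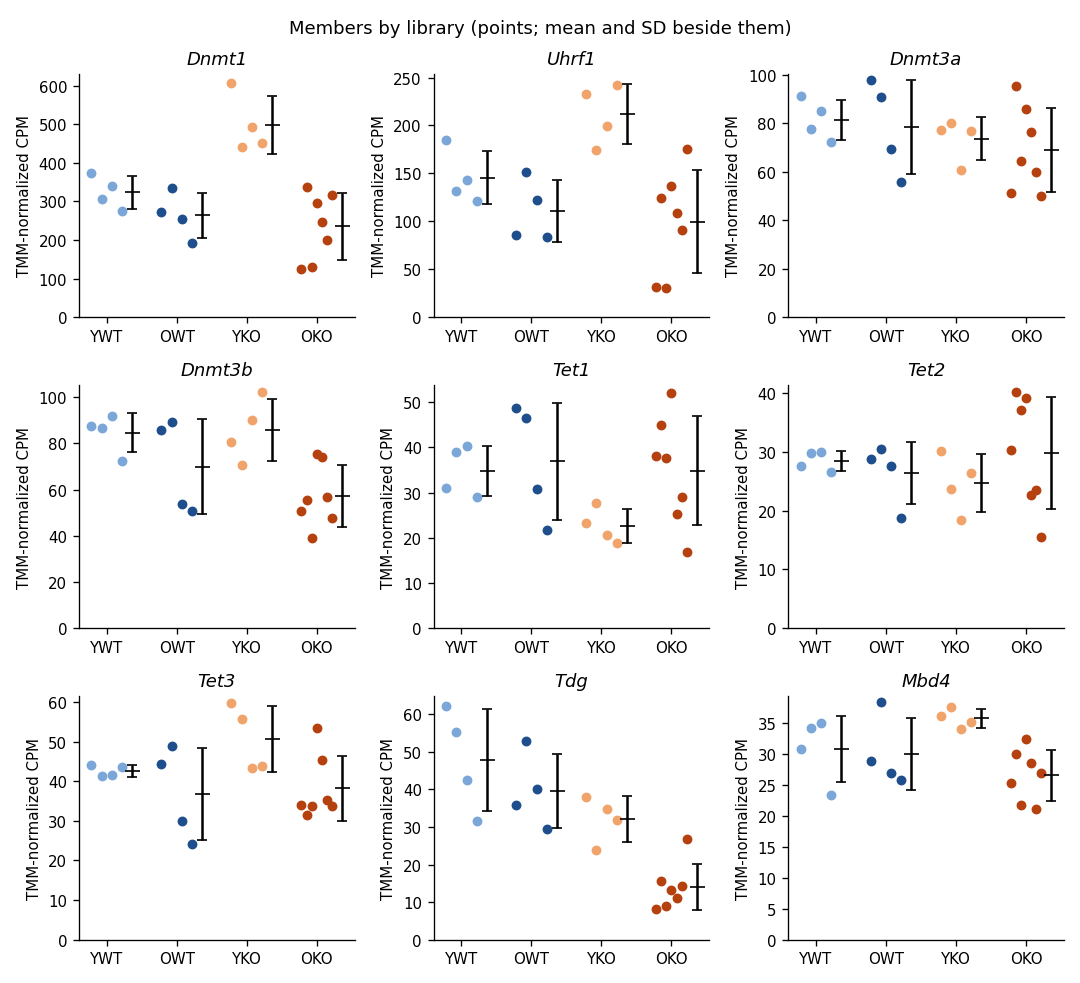
TMM-normalized CPM (vertical axes, linear, from 0) of the 9 genes in YWT, OWT, YKO and OKO, with 1 point a library and the mean and SD beside the points. Dnmt1 in YKO lies between 441 and 607 and above all other groups, and 6 of the 7 OKO libraries lie below 20 for Tdg.

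Dnmt1 was highest in YKO and fell between YKO and OKO. It was measured at 373, 307, 339 and 275 CPM in YWT, at 272, 335, 255 and 192 in OWT and at 607, 441, 493 and 452 in YKO, and in OKO it ran from 124 to 336 with a median of 246. All 4 YKO libraries were above all 15 others, and OKO overlapped both wild-type groups. From YKO to OKO the log2 fold change was -1.08 (SE 0.25, edgeR adjusted p = 0.0332), lower in 7 of 7 OKO libraries than in any YKO library. In YKO vs YWT it was 0.62 (SE 0.29, unadjusted p = 0.0442, edgeR adjusted p = 1.00), while OKO vs OWT gave -0.16 (SE 0.26, edgeR adjusted p = 0.796). The call in OKO vs YKO was lost without YKO1, the highest library (log2 fold change -0.95, edgeR adjusted p = 0.159), without YKO3, OKO3 or OKO6 (adjusted p from 0.0591 to 0.0655), and in a fit of these 2 groups alone (adjusted p = 0.135). It held without OKO1 and OKO3 together, at -0.85. It also held between YKO and the 3 OKO libraries of the same batch, where 6285 of 35140 tested genes were called. These are OKO1, OKO2 and OKO3, at 124, 336 and 129 CPM, so they include the libraries with few replication gene reads.

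Uhrf1, the partner that brings Dnmt1 to newly replicated DNA, followed the same order of groups without passing the test. It was measured at 185, 132, 143 and 122 CPM in YWT, at 86.2, 152, 122 and 83.3 in OWT and at 233, 174, 199 and 242 in YKO, and in OKO from 30.1 to 175 with a median of 109. A single OKO library, OKO7, reached the lowest YKO value, and OKO1 and OKO3, at 31.7 and 30.1, lay far below the other 17 libraries. The log2 fold change of OKO vs YKO was -1.09 (SE 0.35, edgeR adjusted p = 0.121). It passed with DESeq2 (-1.06, adjusted p = 0.0242), where 2100 of 33690 tested genes were called, among other settings given at the end. It also passed without OKO7 (-1.28, edgeR adjusted p = 0.0315), where 1822 of 33284 tested genes were called.

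Of the de novo methyltransferases, Dnmt3a had no difference past the test in any comparison. Its log2 fold changes ran from -0.19 in OKO vs OWT (SE 0.20, edgeR adjusted p = 0.709) to -0.05 in OWT vs YWT (SE 0.23). Its group means were 81.5 ± 8.31, 78.6 ± 19.4, 73.7 ± 8.83 and 69.0 ± 17.4 CPM in YWT, OWT, YKO and OKO (SD). Dnmt3b had means of 84.6 ± 8.49, 69.9 ± 20.5, 85.9 ± 13.4 and 57.1 ± 13.4 CPM in the same order. In OWT its libraries fell into 2 at 85.9 and 89.3 and 2 at 53.9 and 50.6. The log2 fold change of Dnmt3b in OKO vs YKO was -0.59 (SE 0.20, edgeR adjusted p = 0.149). It passed where only the OKO libraries of the YKO batch were used (-0.76, edgeR adjusted p = 0.0227). These are OKO1, OKO2 and OKO3, at 50.7, 55.6 and 39.3 CPM, and 6285 of 35140 tested genes were called there. Antisense transcripts overlap both genes and the library kit does not mark strand, so reads where they overlap cannot be assigned by strand. Dnmt3bos had at most 1.30 CPM and Dnmt3aos at most 0.403 CPM in any library, which does not bound the antisense reads in the overlap.

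Among the Tet genes, Tet1 was the one whose groups separated between the genotypes in young HSCs. It was measured at 31.0, 39.0, 40.2 and 29.0 CPM in YWT, at 48.6, 46.4, 30.8 and 21.6 in OWT and at 23.2, 27.7, 20.7 and 18.8 in YKO, and in OKO from 16.9 to 52.0 with a median of 37.6. All YKO libraries lay below all YWT libraries, while OWT and OKO spread across both. The log2 fold change was -0.62 in YKO vs YWT (SE 0.29, unadjusted p = 0.0459, edgeR adjusted p = 1.00) and 0.62 in OKO vs YKO (SE 0.27, edgeR adjusted p = 0.252). Tet2 and Tet3 did not pass the test in any comparison. Tet2 had means of 28.5 ± 1.74, 26.4 ± 5.23, 24.7 ± 4.93 and 29.8 ± 9.50 CPM and Tet3 42.6 ± 1.40, 36.8 ± 11.6, 50.7 ± 8.35 and 38.2 ± 8.14 CPM in YWT, OWT, YKO and OKO (SD). For both genes the YWT libraries were the most alike, with a coefficient of variation of 6.10% for Tet2 and 3.28% for Tet3, against 19.9% and 31.6% in OWT.

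Mbd4 had the narrowest range of the 9 genes. Its means were 30.8 ± 5.27, 29.9 ± 5.77, 35.7 ± 1.51 and 26.5 ± 4.14 CPM in YWT, OWT, YKO and OKO (SD). All OKO libraries, from 21.1 to 32.3, lay below all YKO libraries, from 34.0 to 37.6. The log2 fold change of OKO vs YKO was -0.43 (SE 0.17, edgeR adjusted p = 0.214) and did not pass.

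Tdg reads were fewer in OKO, on average, than in any other group. Tdg was measured at 62.1, 55.3, 42.4 and 31.6 CPM in YWT, at 35.8, 52.9, 40.2 and 29.4 in OWT and at 38.0, 23.8, 34.9 and 31.8 in YKO, and in OKO from 8.14 to 26.7 with a median of 13.2. All OKO libraries lay below all OWT libraries, and OKO7 alone, at 26.7, reached above the lowest YKO library. The log2 fold change was -1.50 in OKO vs OWT (SE 0.27, edgeR adjusted p = 0.0411), -1.20 in OKO vs YKO (SE 0.27, edgeR adjusted p = 0.0275), and -0.58 in YKO vs YWT (SE 0.31, edgeR adjusted p = 1.00). Averaged over both ages, KO vs WT gave -1.04 (SE 0.21, edgeR adjusted p = 0.0363). The call in OKO vs YKO was lost in 6 of 24 alternatives, among them leaving out YKO1 (edgeR adjusted p = 0.129) or OKO1 and OKO3 together (-0.99, edgeR adjusted p = 0.0665), and that of the averaged comparison in 11 of 32. Within the second batch alone, OKO4 to OKO7 against OWT, the Tdg difference was -1.25 (edgeR adjusted p = 0.191).

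Gm9855 moved the other way between genotypes. It was measured at 3.79, 2.75, 2.03 and 1.18 CPM in YWT and at 1.46, 2.77, 2.05 and 1.66 in OWT, but at 29.3, 16.6, 24.3 and 22.1 in YKO, and in OKO from 4.04 to 17.2 with a median of 9.37. Every knockout library lay above every wild-type library. The log2 fold change was 3.24 in YKO vs YWT (SE 0.42, edgeR adjusted p = 0.00199), 2.24 in OKO vs OWT (SE 0.38, edgeR adjusted p = 0.0273) and -1.29 in OKO vs YKO (SE 0.33, edgeR adjusted p = 0.0577).

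The division of reads between the 2 genes also separated the genotypes. This share was chosen for testing with earlier results of these data known, so its p-values are not those of a test planned beforehand. Of all reads counted on Tdg or Gm9855, Gm9855 took 4.67% ± 0.884 in YWT (SD, n = 4), 4.77% ± 0.609 in OWT (n = 4), 41.7% ± 1.29 in YKO (n = 4) and 39.6% ± 5.05 in OKO (n = 7). The wild-type libraries ran from 3.59% to 5.75% and the knockout libraries from 31.4% to 45.8%. The difference was 37.0 percentage points in YKO vs YWT (two-sided exact permutation test p = 0.0286, the smallest that 4 against 4 libraries allow, Benjamini-Hochberg adjusted p = 0.0571 over 4 comparisons) and 34.8 in OKO vs OWT (two-sided exact permutation p = 0.00303, the smallest possible, adjusted p = 0.0121). Between ages it was 0.102 points in OWT vs YWT (exact p = 0.857) and -2.09 in OKO vs YKO (exact p = 0.470). Within the second batch the OKO vs OWT difference was 37.8 points.

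When the reads of Tdg and Gm9855 were added, the difference between genotypes was no longer called and the difference between ages within the knockout was. The sum was 50.3 ± 14.7 CPM in YWT, 41.6 ± 10.5 in OWT, 55.2 ± 11.3 in YKO and 23.4 ± 10.5 in OKO (SD). Its log2 fold change was 0.13 in YKO vs YWT (SE 0.32, edgeR adjusted p = 1.00), -0.83 in OKO vs OWT (SE 0.28, edgeR adjusted p = 0.592), -1.24 in OKO vs YKO (SE 0.28, edgeR adjusted p = 0.0266) and -0.35 in KO vs WT averaged over both ages (SE 0.21, edgeR adjusted p = 0.768). Whether the reads on Gm9855 come from the Tdg gene or from the pseudogene was not tested, since the counts do not hold the reads. A second pseudogene, Tdg-ps on chromosome 15, had at most 1.85 CPM in any library and did not pass the test in either genotype comparison. Tdg lies near the targeted gene, and of the 190 tested genes within 2 Mb of Gadd45b, 1 was called in OKO vs OWT (Tdg), 0 in YKO vs YWT and 5 in KO vs WT averaged over both ages (Gm32687, Gm4924, Gm8153, Prtn3 and Tdg, named after their values were seen), where 0.0327%, 0.0267% and 0.172% of all tested genes were called. An unadjusted p under 0.05 in the same edgeR test was found for 17, 13 and 18 of the 190 in that order, and for 8.14%, 4.59% and 6.96% of all tested genes. Tdg is itself among the 190, so its own call says nothing about its neighbours.

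**Figure D2:**
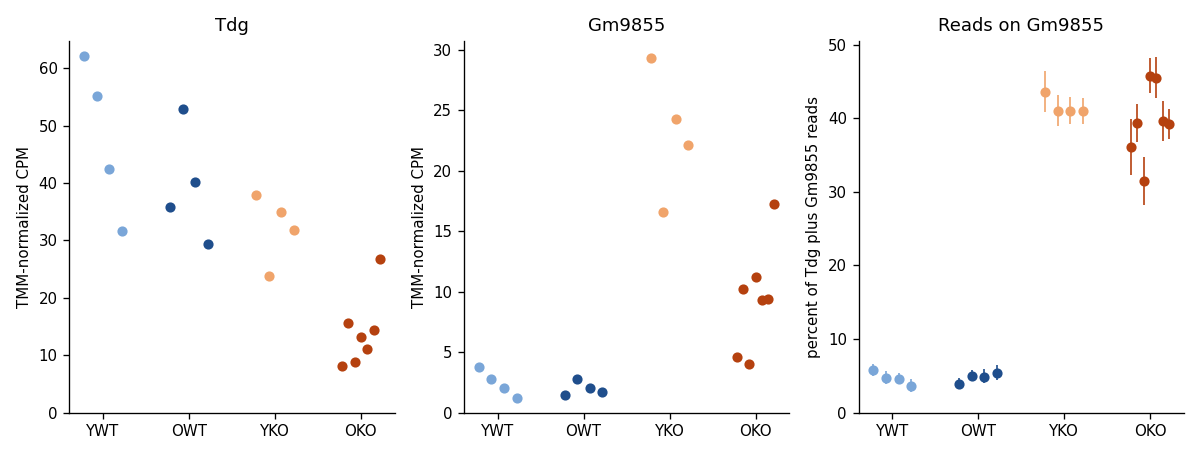
TMM-normalized CPM of Tdg and of Gm9855, and the percent of their summed reads counted on Gm9855 with exact binomial 95% intervals, which cover counting error only (vertical axes, linear, from 0), with 1 point a library. The percent lies between 3.59 and 5.75 in the 8 wild-type libraries and between 31.4 and 45.8 in the 11 knockout libraries.

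Taking the comparisons in turn, none of the 9 genes passed the test in OWT vs YWT. Age and batch cannot be told apart in it. In OWT vs YWT 0 of 9 were called by edgeR and 0 by DESeq2, where 0.00297% of all tested genes were called by edgeR, and 0 of 9 had an unadjusted p under 0.05, where 4.38% of all tested genes did. Of the 9, 8 had a negative log2 fold change, from -0.39 for Uhrf1 (SE 0.40) to -0.04 for Mbd4 (SE 0.19), with a median over the 9 of -0.21 beside -0.05 over all tested genes. The 95% interval reached from -1.22 to 0.44 for Uhrf1 and from -0.90 to 0.31 for Dnmt1, so neither a fall of these sizes nor no change was excluded.

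In YKO vs YWT, young libraries labelled knockout against young wild-type libraries, 0 of 9 were called by edgeR and 0 by DESeq2. Of all tested genes, 0.0267% were called by edgeR. Dnmt1 and Tet1 had an unadjusted p under 0.05, as did 4.59% of all tested genes, and both had groups that did not overlap, as did 5.12% of all tested genes. The median log2 fold change was 0.02 over the 9 genes and -0.02 over all.

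In OKO vs YKO, old against young libraries labelled knockout, edgeR called 2 of 9, Dnmt1 and Tdg, both lower. It called 1.29% of all tested genes, and 0.692% lower. DESeq2 called 3 of 9 (Dnmt1, Uhrf1 and Tdg), beside 2100 of 33690 tested genes. All YKO libraries are of the first batch and OKO holds libraries of both, so batch enters this comparison. Of the 9, 7 had an unadjusted edgeR p under 0.05 (Dnmt1, Uhrf1, Dnmt3b, Tet1, Tet3, Tdg and Mbd4), where 15.8% of all tested genes did. Dnmt1 and Mbd4 had groups that did not overlap, as did 2.60% of all tested genes. Tet1 was the 1 of these 7 with a positive difference. The median was -0.43 over the 9 genes, 0.23 over all tested genes and -0.18 over those with a mean CPM of at least 5. The shift of all genes depends on the genes kept, and Dnmt1, Uhrf1, Tdg, Dnmt3b, Tet3 and Mbd4 stayed negative under each scaling and filter that was run, while Dnmt3a changed sign (0.13 with a mean CPM of at least 5).

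In OKO vs OWT, old libraries labelled knockout against old wild-type libraries, 1 of 9 was called, Tdg, where 0.0327% of all tested genes were called. The groups of Tdg did not overlap, as in 0.819% of all tested genes. The other 8 had log2 fold changes between -0.29 for Dnmt3b and 0.18 for Tet2. The Tdg call was lost in 17 of 24 alternatives, with log2 fold changes between -1.77 and -0.83, so its direction held and its place past the threshold did not. The genotype by age interaction tests whether the difference between libraries labelled knockout and wild-type changes between young and old. It called 0 of 9 genes with edgeR and 0 with DESeq2, where 0% of all tested genes were called by edgeR. Tdg alone had an unadjusted p under 0.05, as did 4.62% of all tested genes (-0.92, SE 0.41, unadjusted p = 0.0350, edgeR adjusted p = 0.811). The differences of Dnmt1 between these labels at the 2 ages, 0.62 and -0.16, differed by -0.79 (SE 0.39, edgeR adjusted p = 0.811). OKO holds libraries of both batches and OWT only of the second, so batch enters these differences. In KO vs WT averaged over both ages 1 of 9 was called, Tdg, where 0.172% of all tested genes were called. The comparisons share groups (OKO stands in 2 of them, as do YKO, OWT and YWT) and are not independent.

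**Figure D3:**
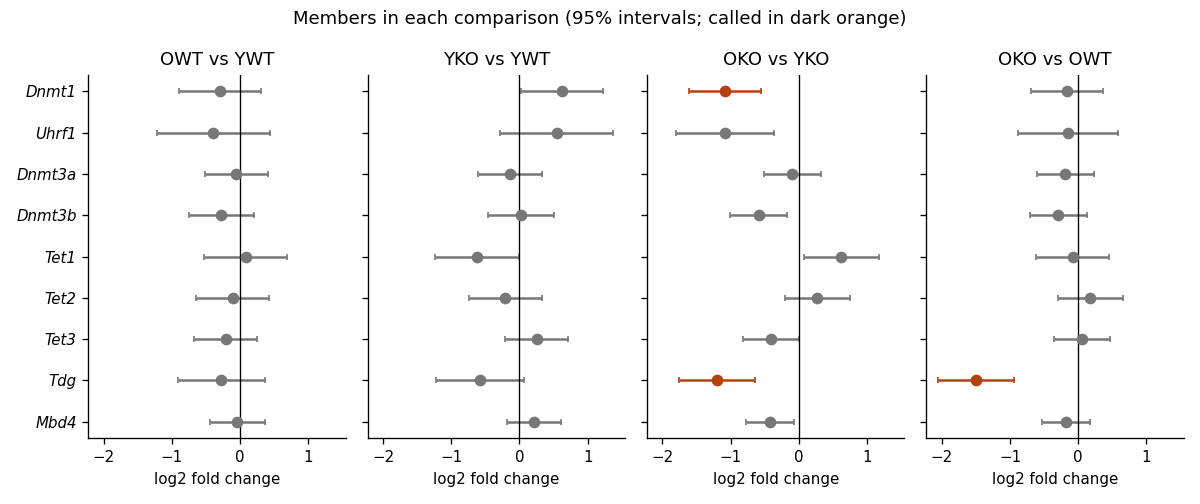
Log2 fold changes of the 9 genes (horizontal axis) with 95% intervals in the 4 pairwise comparisons, 1 panel each, with called genes in dark orange. Dnmt1 at -1.08 and Tdg at -1.20 are called in OKO vs YKO, Tdg at -1.50 in OKO vs OWT, and none in the other 2.

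Dnmt1 and Uhrf1 act at the replication fork, so their levels were set beside 20 genes of DNA replication and cell division. Over the 19 libraries Uhrf1 followed the mean log2(CPM + 1) of this list most closely (Pearson r = 0.970, Spearman rho = 0.926), then Dnmt1 (r = 0.901, rho = 0.907), followed by Tdg (r = 0.675, rho = 0.533) and Mbd4 (r = 0.593, rho = 0.600), whose order depends on the measure. Without OKO1 and OKO3, the libraries farthest from the median of the list, r was 0.904 for Uhrf1, 0.797 for Dnmt1, 0.370 for Tdg and 0.434 for Mbd4 over 17 libraries. With group means removed, r over the 19 libraries was 0.956 for Uhrf1, 0.873 for Dnmt1, 0.828 for Tdg and 0.366 for Mbd4. Tet1 had r = -0.424 and rho = -0.425, with r = -0.465 without OKO1 and OKO3 and -0.291 with group means removed. These are descriptions over libraries that share groups, batches and normalization. With the total count of the library, r was 0.191 for Uhrf1 and 0.0267 for Dnmt1.

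The replication and division list moved with the groups as Dnmt1 and Uhrf1 did. In OKO vs YKO 20 of its 20 genes were negative and 0 were called by edgeR, although 12 had an unadjusted p under 0.05 (15.8% of all tested genes did), and the median was -0.93, and in YKO vs YWT 19 of 20 were positive with a median of 0.42 and 0 called. Mki67, a marker of cycling cells, had a log2 fold change of -1.35 in OKO vs YKO (SE 0.45, edgeR adjusted p = 0.136), Mcm5, a subunit of the replicative helicase, -1.09 (SE 0.40, edgeR adjusted p = 0.174) and Top2a, the topoisomerase of dividing cells, -0.97 (SE 0.44, edgeR adjusted p = 0.284). In OKO1 and OKO3 the mean log2(CPM + 1) of the list was lowest. In these bulk samples, fewer cells in cycle and less RNA per cell cannot be told apart, and the part of cycling in the Dnmt1 difference was not tested.

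Of 45 marker genes of blood cells, 12 were called lower in OKO vs YKO by edgeR, 5 of 7 B cell genes, 4 of 7 erythroid genes, 2 of 6 T cell genes and 1 of 8 granulocyte and monocyte genes, and 0 were called in OKO vs OWT. The summed CPM of the erythroid genes ran from 652 to 2023 in YWT, 166 to 912 in OWT, 1586 to 4645 in YKO and 34.0 to 2507 in OKO. That of the B cell genes ran from 210 to 642, 63.6 to 204, 190 to 1452 and 27.3 to 195 in the same order, and that of the T cell genes from 16.7 to 25.99, 16.5 to 26.7, 24.8 to 113 and 8.33 to 41.0. The granulocyte and monocyte genes summed to between 103 and 254 in YWT, 446 and 848 in OWT, 61.0 and 285 in YKO and 76.6 and 381 in OKO, so OWT lay above OKO without overlap, and 6 of the 8 had an unadjusted p under 0.05 in OKO vs OWT (median log2 fold change -1.78), the comparison in which Tdg was called. The plasma cell genes (5) ran from 1312 to 26682, 431 to 2842, 746 to 13599 and 122 to 4559, and the megakaryocyte genes (5) from 439 to 636, 234 to 1135, 355 to 591 and 139 to 558. The 7 HSC genes ran from 1673 to 2302, 2131 to 3061, 1516 to 1901 and 1569 to 2729, and in OKO vs OWT 7 of 7 were negative with a median of -0.41 and 0 called. In OKO vs YKO 6 of 7 were positive with a median of 0.67 and 0 called. In YKO vs YWT 0 of the 45 markers were called. Of them 14 had an unadjusted edgeR p under 0.05, as did 4.59% of all tested genes. There 6 of 6 T cell genes (median 2.14), 7 of 7 erythroid (1.57) and 7 of 7 B cell genes (0.96) were positive. The HSC genes were negative in 6 of 7 (-0.53), and the plasma cell and megakaryocyte genes in 5 of 5 each. Granulocyte and monocyte genes were positive in 5 of 8. The part of other cell types in the member differences was not tested.

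**Figure D4:**
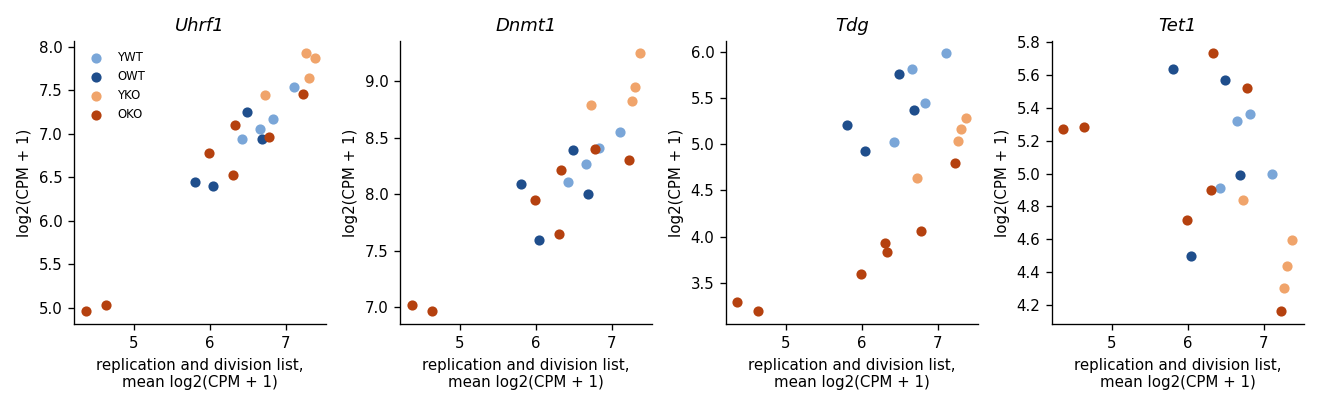
Log2(CPM + 1) of Uhrf1, Dnmt1, Tdg and Tet1 (vertical axes) against the mean log2(CPM + 1) of 20 replication and division genes (horizontal axes), with 1 point a library, coloured by group. Uhrf1 and Dnmt1 rise with the list (r = 0.970 and 0.901). For Tdg, OKO2 and OKO4 to OKO7 lie below the libraries of other groups at a like level of the list. OKO1 and OKO3 have no library of another group at their level.

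The 3 genes whose log2(CPM + 1) was most like each member over the 19 libraries were drawn from 12324 genes whose mean CPM was 5 or more. For Uhrf1 they were Cdc45 (r = 0.989), Mcm5 (0.989) and Pola2 (0.988), all parts of the replication machinery. For Dnmt1 they were the condensin subunit Ncapd2 (0.975), the E2F factor E2f8 (0.963) and Gm4430 (0.962). Dnmt3a was most like Sik2 (0.913), Trim44 (0.869) and Gm10130 (0.854), and Dnmt3b most like 5430405H02Rik (0.885), Chtf8 (0.885) and Plscr3 (0.883). Tet1 was most like Lpp (0.915), Baz2b (0.901) and Ino80d (0.901), Tet2 most like Kmt2c (0.924), Birc6 (0.877) and Vps13b (0.876), and Tet3 most like Slx4 (0.899), Zfp592 (0.898) and Supt6 (0.889). Tdg was most like Kcnn4 (0.915), Bcl2l12 (0.898) and Gm26527 (0.868), and Mbd4 most like Cep72 (0.902), Kctd9 (0.880) and Mapk7 (0.874). Among the 36 pairs of members, the most alike were Dnmt1 and Uhrf1 (r = 0.944), followed by Tet1 and Tet2 (0.805).

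Because Uhrf1 tracked the replication genes most closely, its promoter is shown. RefSeq windows of 250 bases before a transcript start (GRCm38.p6) were found for 9 of 9 members, 14 windows in all, and both strands were searched. The letters sought were TTCCCGC and, as the other form of the E2F core, TTGGCGC. The CCAAT box and the GC box were sought by their letters CCAAT and, for the latter, GGGCGG. The E2F core was in 1 of the 2 Uhrf1 windows and in none of the 3 Dnmt1 windows or the windows of the other members. That is 1 of the 14 windows, beside 5.62% of 32851 promoters of that length. The CCAAT box was in 33.8% and the GC box in 32.7% of them. CCAAT occurred 1 and 2 times in the Uhrf1 windows and 4, 0 and 3 times in those of Dnmt1. It occurred 1, 1 and 2 times in those of Tdg, Tet3 and Mbd4. No window of Dnmt3a, Dnmt3b, Tet1 or Tet2 held it. The GC box was in every member window except the first and second of Dnmt1 and that of Tdg. The first Uhrf1 window has the E2F core and CCAAT in capitals.
Uhrf1 at chr17:56303087-56303336, plus strand: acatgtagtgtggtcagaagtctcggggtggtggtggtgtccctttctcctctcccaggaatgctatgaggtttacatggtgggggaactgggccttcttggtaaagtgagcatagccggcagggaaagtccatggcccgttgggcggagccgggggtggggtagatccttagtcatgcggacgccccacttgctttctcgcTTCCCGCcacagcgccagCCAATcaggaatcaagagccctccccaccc
The E2F core and CCAAT stand close together near the end of this window. It holds 10 CpG dinucleotides beside a median of 6 over all promoters. The second Uhrf1 window holds 30 and the Dnmt1 windows 2, 7 and 26. Those of the other members hold between 15 and 51. A match of letters does not show that a factor binds there.

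Beyond the 9 genes, 49 others of the pathway were listed by role, and 49 of 49 were tested. In OKO vs YKO 1 was called higher and 1 lower, in the other 5 comparisons 0 were called by edgeR, and 21 of 49 had an unadjusted p under 0.05 in OKO vs YKO, where 1.29% of all tested genes were called and 15.8% had such a p. The median over the 49 was -0.16 there. By role, the 6 maintenance partners (Uhrf2, Hells, Cdca7, Cdca7l, Usp7 and Pcna) were negative in 6 of 6 with a median of -0.59, and base excision repair was negative in 7 of 10 with a median of -0.51, with 0 and 1 called. The 7 readers of methylated CpG had a median of 0.09, the 6 Tet cofactors and regulators 0.09, and the 4 partners of de novo methylation 0.32, with 0 called in each.

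The called gene of base excision repair was Neil2, a glycosylase for oxidized bases, which rose from 0.692, 1.05, 1.21 and 1.49 CPM in YKO to between 1.09 and 5.18 CPM in OKO, with a log2 fold change of 1.64 (SE 0.37, edgeR adjusted p = 0.0304). Gadd45a, a paralog of Gadd45b, fell from 42.2, 17.2, 37.8 and 28.0 CPM in YKO to between 9.34 and 19.3 in OKO, a log2 fold change of -1.19 (SE 0.25, edgeR adjusted p = 0.0196). In the other comparisons the 2 smallest unadjusted p in the list belonged to the remodeler Hells (log2 fold change -0.91, SE 0.37) and Neil2 (0.89, SE 0.39) in OWT vs YWT, and to Gadd45a (0.68, SE 0.29) and the methionine synthase Mtr (0.44, SE 0.23) in YKO vs YWT, none of them called. They belonged to Gadd45b and the CXXC protein Cxxc5 (-0.54, SE 0.22) in OKO vs OWT, to Gadd45a (-1.08, SE 0.39) and Gadd45b (-1.23, SE 0.47) in the interaction, and to Gadd45b (-0.76, SE 0.24) and Cxxc5 (-0.39, SE 0.16) in KO vs WT averaged over both ages, again none called.

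**Figure D5:**
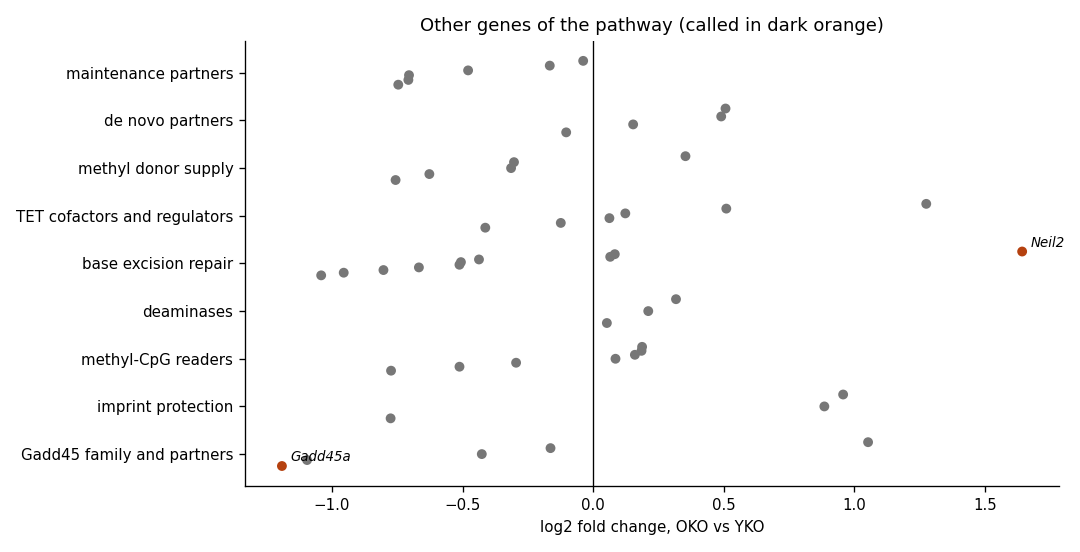
Log2 fold changes in OKO vs YKO (horizontal axis) of 49 other genes of the pathway, in rows by role, with 1 point a gene and called genes in dark orange. Neil2 at 1.64 and Gadd45a at -1.19 are called, and the 6 maintenance partners lie at or below 0.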

How the data were processed

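RNA-seq was measured in 19 libraries of sorted mouse HSCs, while the bisulfite samples of the series were left out. Before deposit, the authors removed adapters and poor bases with Trim Galore 0.4.3 and cutadapt, mapped reads to mm10 using STAR and the GENCODE M22 gene models, and counted reads per gene symbol with featureCounts. These raw counts are the values used. Whether strand was used in counting and how reads that map to more than 1 place were treated are not given in the sources used here, and both bear on Tdg and its copy. Tool names and builds come from the submitters' processing notes and the methods.

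The counts were filtered with filterByExpr, normalized by TMM and tested with the quasi-likelihood test of edgeR 4.0.16 in R 4.3.3, with all 19 libraries in 1 fit and 1 mean per group. A gene was called at a Benjamini-Hochberg adjusted p under 0.05, over all tested genes, and a fold change over 1.5, and in the interaction on the adjusted p alone. DESeq2 1.42.0 was an alternative, with upper-quartile normalization, 2 other filters, fits of the compared groups, batch, sex and replicate number as terms, single batches, left-out libraries and the sum of Tdg and Gm9855. The procedure was tested on simulated data. Logarithms were taken of CPM + 1. Positions are from GENCODE M21 on mm10, and promoters from RefSeq (GRCm38.p6). The shares of reads on Gm9855 were compared with exact permutation tests over libraries, and the Tdg and Gm9855 transcripts were aligned with Biopython 1.88. No 2 libraries held identical values. Listed sex disagreed with the counts of 4 Y-linked genes in 3 libraries, and the labels give female for 19 of 19, while 7 had Y-linked reads.

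Named genes are the 9 members, Gm9855 and Gadd45b as checks, called genes of the pathway list (at most 8 a comparison) or the 2 with the smallest unadjusted p, Mcm5, Mki67 and Top2a of the replication list, and the 3 likest genes of each member. The members, the lists and the test of the share of reads on Gm9855 were chosen with earlier results of these data known. Of the listed genes, 2 are not reported here.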

Additional observations from a re-analysis of the deposited data

Results flagged for a closer look

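Of 44 groups of values examined, 2 held a library farther from the rest than Dixon's 95% limit, where chance gives about 2.2. Tdg in OKO7 was 26.7 CPM, above the other 6 OKO libraries. The percent of Tdg plus Gm9855 reads on Gm9855 in YKO1 was 43.6, above the other 3 YKO libraries, which lay between 41.0 and 41.1. No explanation was tested for either.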

How the results depend on the processing

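In OWT vs YWT, YKO vs YWT and the interaction, 0 of 9 members were called under every alternative that was run. In OKO vs YKO the 2 calls became 3 with DESeq2 (Dnmt1, Uhrf1 and Tdg), beside 2100 of 33690 tested genes. They became 4 with a mean CPM of at least 5 (Dnmt1, Uhrf1, Tet1 and Tdg), where 1496 of 12319 tested genes were called. With batch as a term 4 were called (Dnmt1, Uhrf1, Dnmt3b and Tdg), beside 6420 of 33690 tested genes. With only the OKO libraries of the YKO batch 6 were called (Dnmt1, Uhrf1, Dnmt3b, Tet1, Tet2 and Tdg), beside 6285 of 35140 tested genes. A fit of these groups alone called 0, beside 115 of 30464. Without OKO1 and OKO3 together 1 was called (Dnmt1), beside 258 of 30940. Leaving out single libraries gave from 0 to 3 calls. They were 0 without YKO1, YKO3 or OKO3 and 1 without OKO4 (Dnmt1) or OKO6 (Tdg). Without OKO7 they were 3, beside 1822 of 33284 tested genes. In OKO vs OWT the 1 call, Tdg, became 0 with upper-quartile normalization, the compared groups alone, batch as a term, the second batch only, listed sex, the sum with Gm9855, and without OKO1 and OKO3 together. Leaving out single libraries there gave from 0 to 1, and the call stayed only without OWT4 or OKO7. In KO vs WT averaged over both ages the Tdg call became 0 with batch as a term, with second-batch OKO only and with the sum. Leaving out single libraries there gave from 0 to 1, with 0 without YWT1, YWT2, OWT2, OWT3, YKO2, OKO4, OKO5 or OKO6.

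The replicate numbers did not pair the libraries: of 24 same-numbered pairs, 5 correlated above 0.1, from -0.470 to 0.304. With the replicate block, 4 members were called in OKO vs YKO (Dnmt1, Uhrf1, Tet1 and Tdg), beside 1774 of 33690 tested genes. In OKO vs OWT 0 members were called with it, and Tet1 turned to 0.28. Only OKO has replicate numbers 5 to 7, so OKO5 to OKO7 add nothing to the OKO differences in that fit.

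Of 1341 values of members under an alternative, 88 had the opposite sign, 0 of them for a called result, and 17 of the 88 differed by more than 1 SE. With that value of Tet1, these 17 were 0.050 for Dnmt3a, 0.21 for Tet1 and 0.058 for Mbd4 in OKO vs OWT with upper-quartile normalization, and 0.089, 0.26 and 0.10 with a mean CPM of at least 5. That filter also gave 0.13 for Dnmt3a in OKO vs YKO, and 0.26 for Dnmt3a and 0.13 for Tet3 in the interaction. Batch as a term gave 0.40 for Tet2 in OWT vs YWT, and 0.21 for Uhrf1 and -0.063 for Tet2 in OKO vs OWT. Uhrf1 was -0.15 in the averaged comparison with first-batch OKO only, 0.24 in OKO vs OWT with second-batch OKO only, and 0.20 there without OKO1 and OKO3. Tdg summed with Gm9855 was 0.13 in YKO vs YWT. The cause was not tested. The difference in the share of Gm9855 stayed between 36.3 and 37.3 points in YKO vs YWT and between 33.8 and 37.8 in OKO vs OWT. Over all genes, OKO vs YKO called 434 genes with edgeR, 2100 with DESeq2 and 6420 with batch as a term, and YKO vs YWT 9 with edgeR and 140 with DESeq2. Leaving out OKO1 and OKO3 together and sex by Y-linked counts were chosen after seeing the data.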
